A study of Homo sapiens with 12 samples.

Results

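The genes described here encode the aminoacyl-tRNA synthetases of HEK293T cells. A fixed list of 35 symbols was matched to a deposited table of 41878 gene rows, all 35 were found, and where a symbol had several rows the one with the largest total was used. By name, 19 encode cytosolic enzymes (symbols ending in 1, both subunits of the phenylalanine enzyme, FARSA and FARSB, and EPRS1, which carries glutamate and proline activities in one protein) and 16 encode mitochondrial enzymes (symbols ending in 2). The list holds no aspartyl enzyme.

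RNA was sequenced from HEK293T, an established and readily transfected human embryonic kidney line. Cells received 1 µg of a control vector (vector) or of a plasmid for TRPML3, the endosomal and lysosomal cation channel encoded by MCOLN3, with Effectene. They then stayed in 10% serum (fed) or were held in 0% serum for 4 h (starved), a treatment meant to induce autophagy. The 4 groups (vector fed, vector starved, TRPML3 fed, TRPML3 starved) have 3 biological replicates each, which makes 12 libraries of polyadenylated RNA from transiently transfected populations. The labels do not say whether a number marks a shared day or culture, so p-values measure the spread between these samples.

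Each synthetase joins 1 kind of amino acid to its matching tRNA, the step that sets what a codon means. Cytosolic enzymes serve ribosomes that translate nuclear messages, and mitochondrial enzymes, made in the cytosol and imported, serve the few proteins encoded by the mitochondrial genome. GARS1 and KARS1 make both forms from one gene. Several cytosolic enzymes sit with the scaffold proteins AIMP1, AIMP2 and EEF1E1 in the multi-synthetase complex. When amino acids run short, uncharged tRNA activates the kinase GCN2, translation of ATF4 rises, and ATF4 binds C/EBP-ATF response elements in its target genes, many synthetase genes among them.

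The windows that hold this element are shown first, because it is a known link between amino acid supply and synthetase transcription. RefSeq promoter windows (250 bases before to 50 after the start, GRCh38.p14) were found for 30 of the 35 genes and searched on both strands for TGATGNAA, the core of the element, with no other motif searched. The core was present in 7 of 16 cytosolic windows (43.8%) and in 1 of 14 mitochondrial windows (7.14%), against 4.46% of the 27305 genes with such a window. Each line gives 30 bases on the gene's own strand, 5′ to 3′, with the match in capitals.
AARS1, chr16:70289675-70289704, minus strand: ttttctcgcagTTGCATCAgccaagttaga
CARS1, chr11:3057407-3057436, minus strand: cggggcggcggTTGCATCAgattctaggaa
GARS1, chr7:30594834-30594863, plus strand: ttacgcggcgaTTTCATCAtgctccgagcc
IARS1, chr9:92293692-92293721, minus strand: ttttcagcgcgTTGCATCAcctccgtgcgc
MARS1, chr12:57488053-57488082, plus strand: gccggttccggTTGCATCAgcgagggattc
NARS1, chr18:57621804-57621833, minus strand: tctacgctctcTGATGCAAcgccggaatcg
TARS1, chr5:33440956-33440985, plus strand: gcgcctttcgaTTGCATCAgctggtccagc
YARS2, chr12:32756076-32756105, minus strand: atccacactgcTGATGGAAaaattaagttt
In 6 of these 8 windows the match has the same letters when read on one strand or the other, with C at the free base, and GARS1 and YARS2 differ there. The match begins within 33 bases of the start in CARS1, GARS1, IARS1, MARS1, NARS1 and TARS1, and 187 and 197 bases upstream in AARS1 and YARS2. A match is a description of letters and not a measured binding site. The windows of LARS1, YARS1, VARS1, VARS2 and AARS2 were not analysed here.

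Values of single libraries are given throughout in the order of replicates 1, 2 and 3. Library totals were 33101540 to 43700547 counts, and the floor of detection, set at 3 counts, was 0.0675 to 0.0978 CPM (counts scaled by library size after TMM). MCOLN3 was at 9.31 to 18.4 CPM in the 6 vector libraries and at 4929 to 58223 CPM in the 6 TRPML3 libraries, as labelled. Its level was uneven within the TRPML3 groups, at 6211, 4929 and 39972 CPM in fed and 41362, 58223 and 16896 in starved cells. In replicates 1 and 2 it was higher in starved than in fed cells, and in replicate 3 lower. The part of this in the comparisons that use TRPML3 libraries was not tested. The HEK293T marker VIM had a median of 380 CPM, NEFL 74.1 and NEFM 119, while PAX2 (3.54), LHX1 (3.28) and GATA3 (0.593) were low. Of 7 markers of other cell types, HBB was at 0 in every library, PTPRC, CDH5, KRT5, DES and CD3E had a median of 0, and ALB reached 2.05 CPM. Their summed level was 0.234 to 1.10 CPM in fed and 0.359 to 2.30 in starved libraries. Of the genes, 18030 passed the expression filter, all 35 synthetases among them.

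The fed libraries numbered 3 were those least like the rest of their group. Vector fed replicate 3 was less like the other fed libraries of its plasmid (mean rank correlation across genes 0.936) than like starved replicates 1 and 2 (0.951), and for TRPML3 fed replicate 3 these values were 0.935 and 0.945. Vector fed replicate 2 met the same description by a smaller margin (0.945 against 0.948), while replicate 1 of both plasmids and TRPML3 fed replicate 2 were more like the other fed libraries. The share of counts from the mitochondrial genome also followed the number, at 2.81 to 4.40% in replicate 1, 1.05 to 2.52% in replicate 2 and 4.83 to 5.70% in replicate 3. Results on starvation are therefore given with and without replicate 3. That omission was chosen with earlier results known and removes fed libraries that resemble starved ones but keeps vector fed replicate 2, so it is set beside the fit of all 12 libraries and does not replace it.

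The synthetase genes together took 0.521% (Wilson 95% interval 0.519 to 0.524) of counts in vector fed replicate 1, the lowest share, and 0.630% (0.627 to 0.632) in vector starved replicate 1, the highest. These intervals cover counting error only. Because these are bulk samples, fewer cells expressing a gene and less RNA per cell cannot be told apart.

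Levels of different genes were compared per length, as counts per kilobase of the longest GENCODE 29 transcript, scaled like CPM (TPM). In vector fed cells the cytosolic genes had a median of 154 TPM (22.5 to 448) and the mitochondrial genes 25.8 TPM (3.09 to 209). Of the cytosolic genes, 14 of 19 were above 100 TPM, against 2 of 16 mitochondrial genes, and 3 mitochondrial genes were below 10 TPM. The classes overlapped, since 9 mitochondrial genes lay above VARS1, the lowest cytosolic one.

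**Figure D1:**
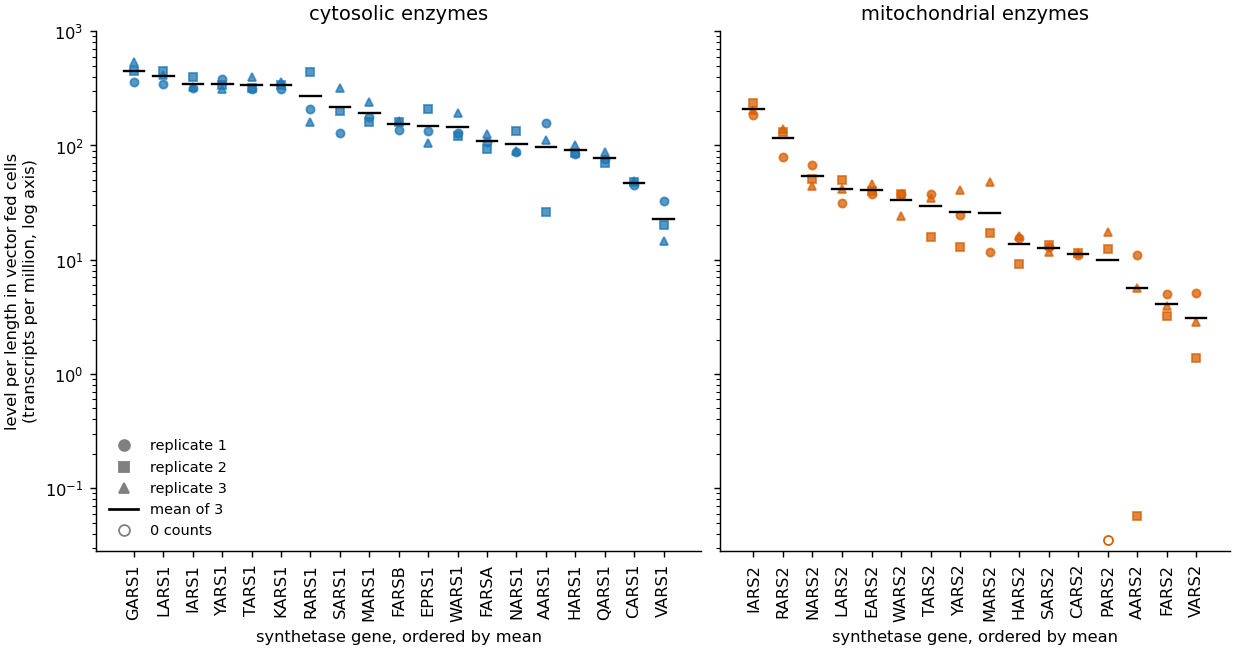
Level per length of each synthetase gene in vector fed cells (TPM, log axis), cytosolic genes left and mitochondrial genes right, with 1 marker per replicate and a bar for the mean of 3. GARS1 leads at 448 TPM and VARS2 is lowest at 3.09; the open marker is PARS2 in replicate 1, which had 0 counts, and AARS2 in replicate 2 rests on 3 counts.

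GARS1, the glycyl enzyme (ENSG00000106105, chr7:30594681-30634033, plus strand, GRCh38), led all 35 genes in vector fed cells at 448 ± 92.3 TPM (SD, n = 3). LARS1 (leucyl, 404 ± 53.3), IARS1 (isoleucyl, 348 ± 42.2), YARS1 (tyrosyl, 346 ± 36.2), TARS1 (threonyl, 342 ± 47.6) and KARS1 (lysyl, 336 ± 25.3) followed. Neighbours among these 6 genes overlapped between libraries, so their order is not settled. It also differs between groups. In vector starved, TRPML3 fed and TRPML3 starved cells TARS1 had means of 595, 459 and 519 TPM, against 454, 294 and 392 for GARS1. The order depends on the length taken too. With the union of a gene's exons as the length, YARS1 was at 182 TPM in vector fed cells, below RARS1 at 228. At the other end of the class, QARS1 (glutaminyl) was at 78.2 ± 8.95 TPM, CARS1 (cysteinyl) at 47.2 ± 2.02 and VARS1 (valyl, ENSG00000204394, chr6:31777518-31795953, minus strand) at 22.5 ± 9.35. Of the 18 steps between neighbours in the cytosolic order, the 3 libraries did not overlap in 2, from QARS1 to CARS1 and from CARS1 to VARS1.

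Between these ends lay RARS1 (arginyl, 269 TPM), SARS1 (seryl, 216), MARS1 (methionyl, 193), FARSB (phenylalanyl beta subunit, 154), EPRS1 (149) and WARS1 (tryptophanyl, 146). FARSA, the alpha subunit that works in a complex with FARSB, was at 109 TPM, followed by NARS1 (asparaginyl, 104), AARS1 (alanyl, 97.7) and HARS1 (histidyl, 90.8).

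Among the mitochondrial genes IARS2 (ENSG00000067704, chr1:220094102-220148041, plus strand) stood at 209 ± 24.4 TPM, above the means of 11 of the 19 cytosolic genes, and RARS2 at 116 ± 32.0. Then came NARS2 (54.1 TPM), LARS2 (41.2), EARS2 (41.1), WARS2 (33.02), TARS2 (29.4), YARS2 (26.2) and MARS2 (25.4). HARS2 (13.6), SARS2 (12.7), CARS2 (11.3) and PARS2 (10.0) were lower, and AARS2 (5.62), FARS2 (4.06) and VARS2 (3.09 ± 1.86, ENSG00000137411, chr6:30908242-30926459, plus strand) were lowest. Of the 15 steps between neighbours, 3 showed no overlap of the 3 libraries, from IARS2 to RARS2, from RARS2 to NARS2 and from SARS2 to CARS2. With the union of exons as the length, IARS2 was at 238 TPM, above RARS1 at 228, and CARS2 at 5.05. The place of IARS2 among the cytosolic genes therefore depends on the length taken.

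For 17 pairs of a cytosolic and a mitochondrial gene for the same amino acid, the cytosolic gene had the higher level per length in 12 of 12 libraries in all 17 pairs. The median of the pair ratios was 10.7. The ratio was largest for FARSB over FARS2, with a median of 37.3 (27.5 to 49.5 over 12 libraries), and smallest for IARS1 over IARS2, at 1.57 (1.15 to 1.96). Low ratios were also found for NARS1 over NARS2 (2.05) and RARS1 over RARS2 (2.06), and ratios above 20 for FARSA over FARS2 (30.5) and SARS1 over SARS2 (24.9). With the union of exons as the length, IARS1 was above IARS2 in 9 of 12 libraries and RARS1 above RARS2 in 11 of 12, so the order in these 2 pairs depends on the transcript taken.

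HARS1 and HARS2 are neighbours whose RefSeq start sites point away from each other, 85 bases apart. The 84 bases between them, chr5:140691371-140691454 on the plus strand (GRCh38.p14), are 59.5% G and C and lie in both genes' promoter windows. They are shown because a single stretch of DNA stands before both histidyl enzymes.
HARS1 to HARS2 interval: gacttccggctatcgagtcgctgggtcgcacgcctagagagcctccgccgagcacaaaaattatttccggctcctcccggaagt
HARS1 had 104, 95.1 and 137 CPM in fed and 113, 146 and 115 in starved vector cells, and 105, 95.6 and 142 in fed and 137, 148 and 113 in starved TRPML3 cells. HARS2 had 13.6, 7.22 and 15.8 CPM in fed and 8.06, 10.7 and 5.40 in starved vector cells, and 5.88, 4.71 and 18.2 in fed and 5.75, 6.02 and 8.22 in starved TRPML3 cells. Both were high in the fed libraries numbered 3. HARS1 exceeded HARS2 per length by a median of 9.97 times (5.47 to 17.6). The GENCODE 29 models of the genes overlap at their starts, and whether counting used strand is not given, so reads from the overlap may count for either. Other synthetase genes with a start site on the opposite strand nearby are TARS1 (62 bases from TARS1-DT), FARSB (341 from LOC124907985), SARS2 (181 bases from MRPS12), KARS1 (108 from TERF2IP), FARS2 (57 from LYRM4), RARS2 (148 from ORC3), WARS1 (158 from WDR25) and EARS2 (352 from UBFD1).

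The spread between replicates differed between the classes. The SD of log2 CPM within groups had a median of 0.294 over the cytosolic and 0.580 over the mitochondrial genes, against 0.551 over all 18030 genes. Of the cytosolic genes, 16 of 19 lay below the all-gene median, and of the mitochondrial genes 7 of 16. The mitochondrial genes also had fewer counts (median 20.1 CPM, against 187 for the cytosolic and 10.5 for all genes), and the part of depth in this difference was not tested.

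**Figure D2:**
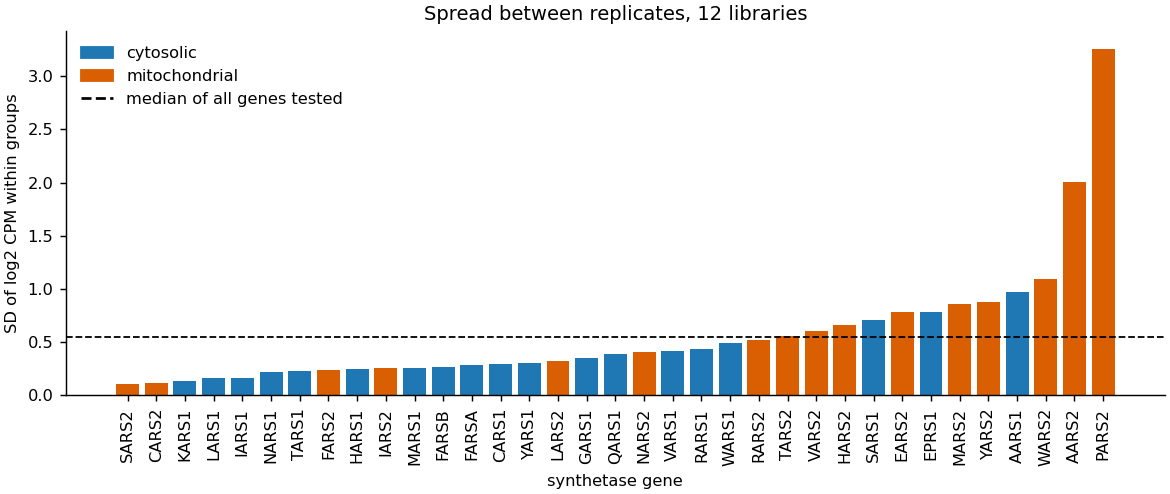
Within-group SD of log2 CPM over 12 libraries for each synthetase gene, ordered, with cytosolic genes in blue, mitochondrial genes in orange and the all-gene median (0.551) as a dashed line. The 3 tallest bars, WARS2, AARS2 and PARS2, are mitochondrial; SARS2 and CARS2, the 2 shortest, are mitochondrial too.

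The steadiest genes were SARS2 (SD 0.10), CARS2 (0.11) and KARS1 (0.14). KARS1 stayed between 256 and 348 CPM, a 1.36-fold range over all 12 libraries. At the other extreme, PARS2, the prolyl enzyme (SD 3.26), had 0 counts in vector fed replicate 1 and TRPML3 fed replicate 1 but 16.1 CPM in vector fed replicate 3 and 15.2 in TRPML3 fed replicate 3. AARS2 (SD 2.01) ranged from 0.0685 CPM, or 3 counts, in vector fed replicate 2 to 36.5 in TRPML3 fed replicate 3, and WARS2 (SD 1.10) from 2.61 to 36.9. In the cytosolic class AARS1 varied most (SD 0.97, 28.5 to 189 CPM). EPRS1 was at 175 to 326 CPM in 10 libraries but at 821 in TRPML3 fed replicate 2 and 671 in TRPML3 starved replicate 3.

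Averaged over the 19 genes, the cytosolic class stood at 7.44, 7.32 and 7.72 log2 CPM in fed and 7.70, 7.61 and 7.55 in starved vector cells, and 7.46, 7.44 and 7.74 in fed and 7.77, 7.68 and 7.69 in starved TRPML3 cells. The 16 mitochondrial genes stood at 4.10, 3.79 and 4.82 in fed and 4.63, 4.39 and 4.21 in starved vector cells, and 3.87, 4.15 and 4.76 in fed and 4.31, 4.39 and 4.04 in starved TRPML3 cells. In both classes the fed libraries numbered 3 were the highest fed ones, and the starved and fed groups overlapped. The mitochondrial means weigh each of the 16 genes alike on a log scale, so genes near 0 pull a library down. These were PARS2 at 0 counts in vector fed replicate 1 and TRPML3 fed replicate 1, and AARS2 at 3 counts in vector fed replicate 2. In vector cells the mitochondrial mean was 4.24 fed and 4.41 starved, while the median fold change over genes was -0.27 (log2). The mitochondrial genome's share of counts was also highest there among fed libraries (5.70% and 4.83%), and its part was not tested.

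**Figure D3:**
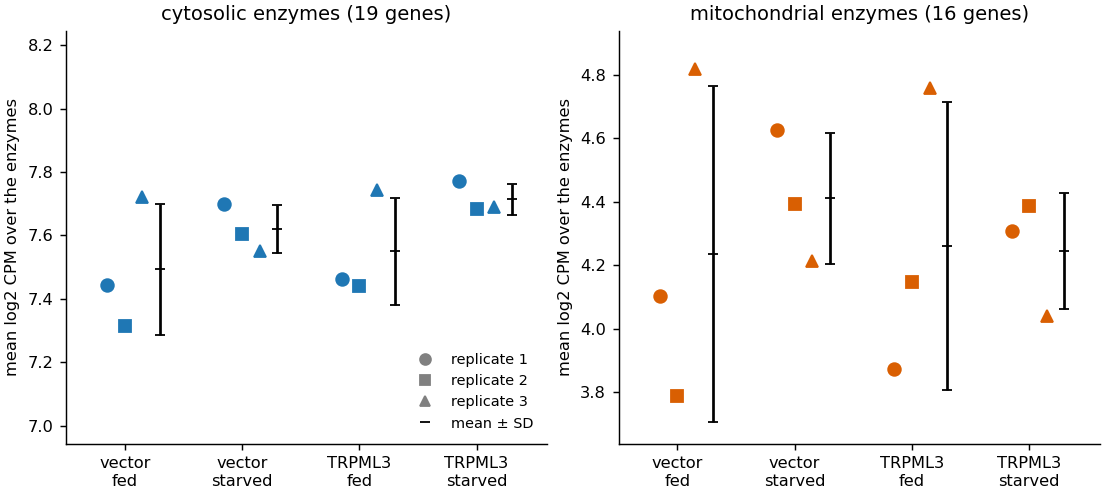
Mean log2 CPM over the 19 cytosolic (left) and 16 mitochondrial (right) genes in each library, by group, with markers for replicate number and the mean ± SD of 3. The triangles (replicate 3) are the highest fed points in both panels, at 7.72 and 7.74 for cytosolic and 4.82 and 4.76 for mitochondrial genes. Some other fed mitochondrial points are lowered by 1 gene near 0, PARS2 in replicate 1 of both plasmids and AARS2 in vector replicate 2.

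TRPML3 libraries were compared with vector libraries to ask what the channel changes. With edgeR's quasi-likelihood test on all 12 libraries, 0 of 35 synthetase genes passed an adjusted p of 0.05 in fed or in starved cells. Among all 18030 genes, 2 (0.0111% of those tested) and 1 (0.00555%) passed, and 1 and 0 with MCOLN3 removed from the counts. With the replicate number as a block 0 and 0 genes passed, so MCOLN3 itself was not called there. DESeq2's Wald test also called 0 of the 35 in fed and in starved cells, where it called 30 (0.166%) and 43 (0.238%) of all genes. At an unadjusted p under 0.05 there was 1 synthetase in fed cells (all genes 2.21%) and 0 in starved cells (2.20%). In fed cells 13 of 19 cytosolic genes were higher with TRPML3 (median log2 fold change 0.10) and 7 of 16 mitochondrial genes (median -0.10), beside a median of -0.01 over all genes. In starved cells the counts were 11 of 19 (0.03) and 6 of 16 (-0.10). With library size only, which moved the median of all genes to -0.11 in starved cells, the starved cytosolic median was -0.08. In fed cells the medians rest on single libraries. When TRPML3 fed replicate 3 was omitted the mitochondrial median was -0.35 and the cytosolic one 0.00, and when vector fed replicate 3 was omitted they were 0.20 and 0.22. As class means per library, fed cells had 7.49 ± 0.21 log2 CPM (SD, n = 3) with vector and 7.55 ± 0.17 with TRPML3 for cytosolic genes, and 4.24 ± 0.53 and 4.26 ± 0.45 for mitochondrial genes. In starved cells these were 7.62 ± 0.08 and 7.71 ± 0.05, and 4.41 ± 0.21 and 4.24 ± 0.18. The vector and TRPML3 libraries overlapped in all 4 of these comparisons of class means.

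The synthetase at an unadjusted p under 0.05 in fed cells was TARS1, the threonyl enzyme (ENSG00000113407, chr5:33440696-33469539, plus strand). It had 466, 432 and 666 CPM in fed and 856, 996 and 903 in starved vector cells, and 795, 584 and 787 in fed and 916, 925 and 757 in starved TRPML3 cells. Vector fed replicates 1 and 2 were the lowest of the 12 libraries, and the TRPML3 fed libraries overlapped the vector fed ones. The TRPML3 effect in fed cells was 0.47 ± 0.19 (log2, SE; unadjusted p = 0.0293, adjusted p = 1 in edgeR), and in starved cells -0.08 ± 0.19.

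Without a test of their own, 3 genes had every TRPML3 fed library below every vector fed one, where 3.87% of all genes did. They were GARS1, SARS2 and WARS2, and 0 synthetases lay above (3.22%). In starved cells AARS2 and FARS2 lay below without overlap (3.56% of all genes) and MARS1 above (3.02%). GARS1 had 327, 369 and 554 CPM in fed and 581, 381 and 323 in starved vector cells, and 281, 263 and 301 in fed and 519, 342 and 339 in starved TRPML3 cells. Its fed TRPML3 effect was -0.56 ± 0.27, unadjusted p = 0.0609 and adjusted p = 1 in edgeR.

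The effect of serum withdrawal was measured first inside each plasmid group. Within vector and within TRPML3 cells 0 of 35 synthetases passed in edgeR or in DESeq2, against 1 (0.00555%) and 0 (0%) of all genes in edgeR and 43 (0.238%) and 88 (0.488%) in DESeq2. Without overlap of the 3 starved and 3 fed libraries, TARS1 and SARS2 were higher in starved vector cells (5.36% of all genes, with 0 synthetases lower against 4.57%) and GARS1 and SARS2 in starved TRPML3 cells (5.56%), where AARS2 was lower (5.66%). An unadjusted p under 0.05 was reached by 1 synthetase in vector (all genes 4.44%) and 1 in TRPML3 cells (5.71%). The interaction term, a test of whether plasmid alters the effect of starvation, gave 0 of 35 at an adjusted p under 0.05 in edgeR (all genes 0%) and in DESeq2 (0.15%), and 0 at an unadjusted p under 0.05 (2.07%).

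Averaged over both plasmids, starvation gave 0 of 35 synthetases in edgeR (smallest adjusted p 0.349, TARS1; all genes 0%) and 3 at an unadjusted p under 0.05 (all genes 9.45%), all higher. DESeq2's Wald test called 1 of 35, SARS2 (log2 fold change 0.35, adjusted p = 0.0465), where it called 287 of all genes (1.59%). Of the cytosolic genes 14 of 19 were higher in starved cells, with a median log2 fold change of 0.08, and of the mitochondrial genes 5 of 16, with a median of -0.17. Over all genes 50.7% were higher, with a median of 0.01. With library size only, which moved the all-gene median to -0.06, 10 of 19 and 4 of 16 were higher.

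TARS1 also had the smallest p of the synthetases for starvation in vector cells and averaged over plasmids. Its starvation effect was 0.82 ± 0.19 in vector cells (unadjusted p = 0.00125, adjusted p = 1.00 in edgeR), where the starved libraries lay above the fed ones without overlap, and 0.26 ± 0.19 in TRPML3 cells, where they overlapped. The interaction of these effects was -0.56 ± 0.26 (unadjusted p = 0.0604, adjusted p = 1.00 in edgeR), so a difference between plasmids was not shown. The fed TRPML3 comparison and the vector starvation comparison share the vector fed libraries. The average effect was 0.54 ± 0.13 (adjusted p = 0.349 in edgeR).

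SARS2, the mitochondrial seryl enzyme, was the other gene with a tight pattern. It had 9.36, 8.59 and 9.38 CPM in fed and 11.4, 9.73 and 11.0 in starved vector cells, and 6.14, 7.24 and 6.42 in fed and 9.20, 9.76 and 8.63 in starved TRPML3 cells. The TRPML3 fed libraries were the 3 lowest of the 12, and starved libraries lay above fed ones without overlap in both plasmids. The starvation effect was 0.23 ± 0.21 in vector and 0.48 ± 0.21 in TRPML3 cells (unadjusted p = 0.0448, adjusted p = 0.869 in edgeR), and 0.36 ± 0.15 on average (unadjusted p = 0.0362, adjusted p = 0.488). SARS2 is counted under an identifier, ENSG00000283104, that the GENCODE 29 primary assembly does not list, as is CARS1 (ENSG00000278191). Their lengths were taken from the primary gene of the same symbol.

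FARSA (ENSG00000179115, chr19:12922479-12934037, minus strand) was the third. It had 76.8, 60.5 and 101 CPM in fed and 117, 114 and 89.7 in starved vector cells, and 66.7, 68.3 and 104 in fed and 93.8, 109 and 98.0 in starved TRPML3 cells. Fed replicates 1 and 2 of both plasmids were the 4 lowest, and fed replicate 3 of both lay within the starved range. The average starvation effect was 0.38 ± 0.17 (unadjusted p = 0.0479, adjusted p = 0.519 in edgeR).

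**Figure D4:**
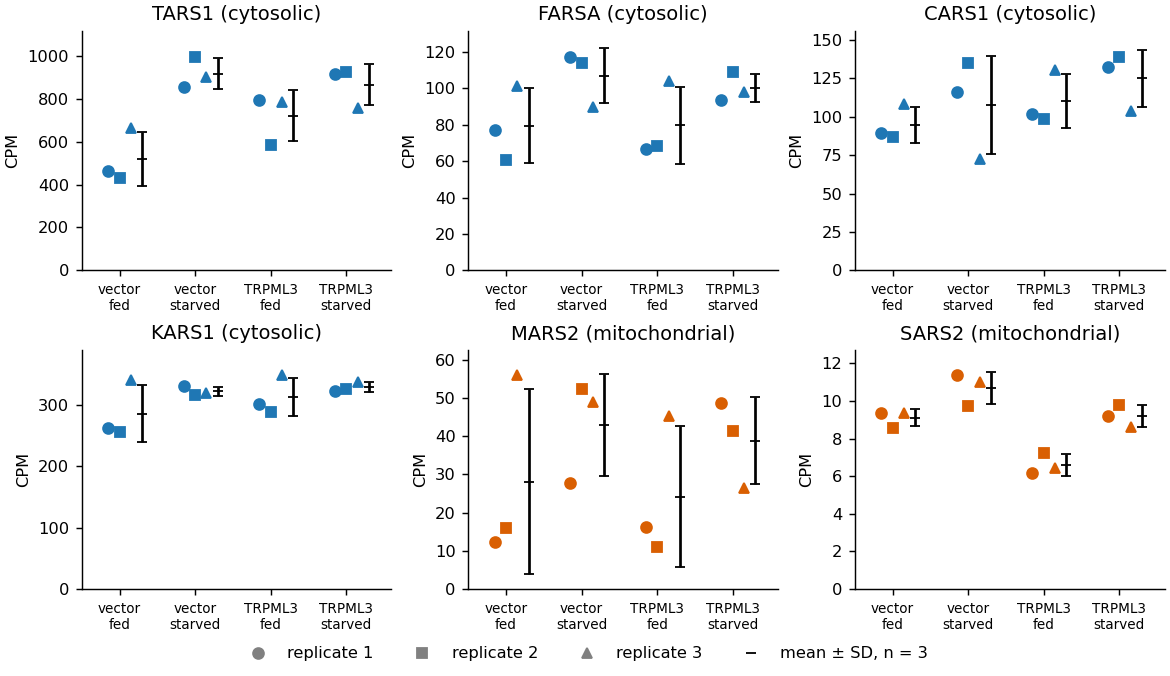
CPM of 6 synthetase genes in each library, by group, with markers for replicate number and the mean ± SD (n = 3). CARS1, KARS1 and MARS2 were chosen for the plot after their values were seen; in FARSA, CARS1, KARS1 and MARS2 the fed triangles (replicate 3) lie above both other fed libraries, for MARS2 at 55.9 and 45.4 CPM.

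The other members named by the fixed rule showed no separation by serum. IARS2 had 231, 262 and 285 CPM in fed and 295, 216 and 359 in starved vector cells, and 309, 230 and 349 in fed and 297, 267 and 316 in starved TRPML3 cells. VARS1 had 49.3, 27.3 and 24.4 CPM in fed and 43.9, 37.4 and 32.8 in starved vector cells, and 29.0, 34.4 and 48.0 in fed and 63.4, 52.9 and 34.1 in starved TRPML3 cells. VARS2 had 10.7, 2.60 and 6.69 CPM in fed and 5.29, 4.60 and 3.94 in starved vector cells, and 4.03, 3.62 and 7.70 in fed and 4.18, 3.47 and 3.47 in starved TRPML3 cells. Fed and starved groups overlapped for all 3 genes in both plasmids.

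Without replicate 3 the picture of starvation differed. In that fit of 8 libraries, 810 of 18052 genes (4.49%) passed an adjusted p of 0.05 for average starvation, 459 of them higher (2.54%). Of the 35 synthetases 3 passed, all higher in starved cells. TARS1 had a log2 fold change of 0.74 ± 0.12 (adjusted p = 0.0370 in edgeR), FARSA 0.68 ± 0.12 (adjusted p = 0.0433) and MARS2, the mitochondrial methionyl enzyme, 1.62 ± 0.27 (adjusted p = 0.0373). CARS1 came close (0.48 ± 0.10, adjusted p = 0.0541). KARS1 (0.24 ± 0.08), HARS1 (0.46 ± 0.12) and GARS1 (0.57 ± 0.19) had an unadjusted p under 0.05, as 23.3% of all genes did (12.1% in the higher direction), and did not pass the adjustment, with adjusted p of 0.131, 0.0934 and 0.147 in edgeR.

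MARS2 (ENSG00000247626, chr2:197705369-197708387, plus strand) had 12.4, 16.1 and 55.9 CPM in fed and 27.7, 52.3 and 48.8 in starved vector cells, and 16.2, 11.0 and 45.4 in fed and 48.7, 41.3 and 26.3 in starved TRPML3 cells. Fed replicates 1 and 2 were the 4 lowest libraries and vector fed replicate 3 the highest of all. With all 12 libraries the effect was 0.65 ± 0.45 (adjusted p = 0.718 in edgeR), so the call exists only where replicate 3 is left out.

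In replicates 1 and 2, 6 synthetases had all 4 starved libraries above all 4 fed ones (CARS1, FARSA, HARS1, KARS1, TARS1 and MARS2) and 0 had them all below. Among all genes 10.2% were above and 10.1% below. With all 6 starved against all 6 fed libraries, 0 synthetases were above or below without overlap, where 0.754% of all genes were above and 0.499% below. These are the same libraries as in the fit and add no separate evidence.

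By class, 18 of 19 cytosolic genes were higher in starved cells without replicate 3 (median 0.17, the exception being EPRS1 at -0.91 ± 0.46), and 11 of 16 mitochondrial genes (median 0.08), beside 48.5% of all genes (median -0.02). The count depends on the scaling. With library size only, which moved the all-gene median to -0.13, 12 of 19 (median 0.05) and 7 of 16 (median -0.03) were higher and only MARS2 of the 3 passed. With DESeq2's size factors the counts were 18 of 19 and 11 of 16.

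**Figure D5:**
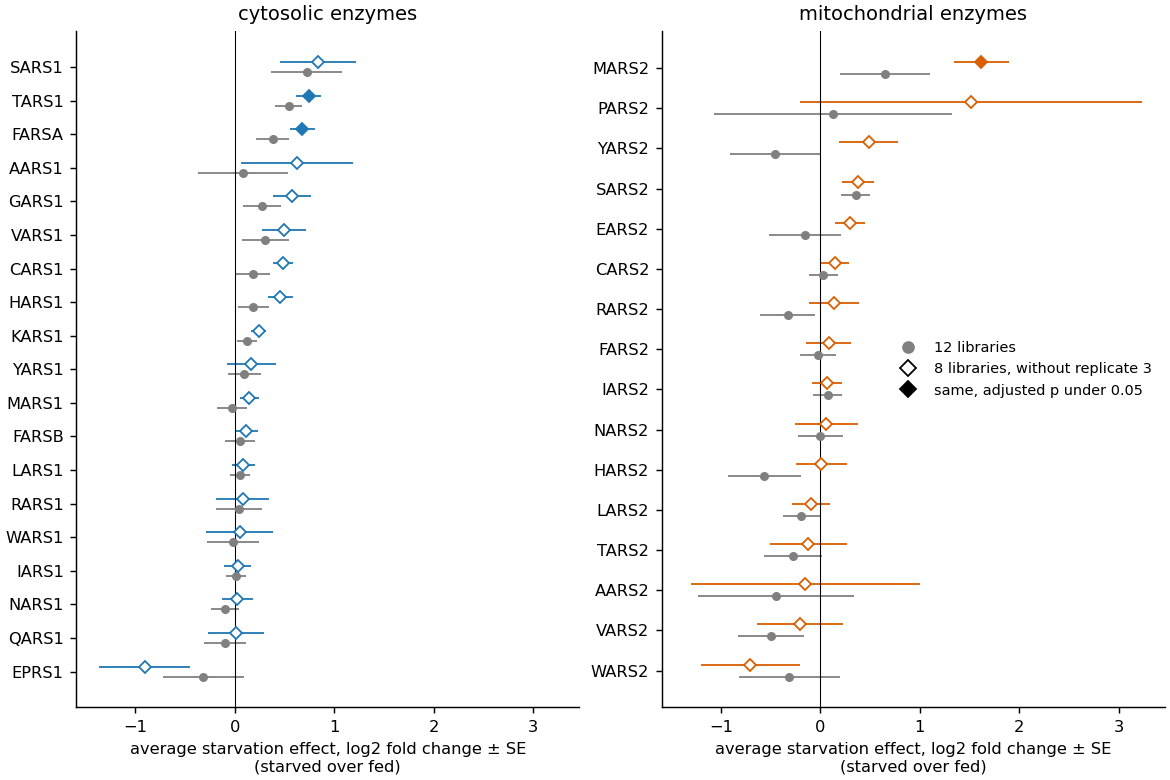
Average starvation effect of each synthetase gene (log2 fold change ± SE, starved over fed), in all 12 libraries (grey) and without replicate 3 (colour, filled where the adjusted p was under 0.05). Filled points are TARS1, FARSA and MARS2; the coloured points lie to the right of 0 for 18 of 19 cytosolic genes under TMM scaling and for 12 of 19 with library size only.

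The 7 cytosolic enzymes of the multi-synthetase complex (EPRS1, IARS1, KARS1, LARS1, MARS1, QARS1 and RARS1) had a median starvation effect of 0.01 with all libraries and 0.08 without replicate 3, where 6 of 7 were higher. The 12 cytosolic genes outside the complex had medians of 0.19 (10 of 12 higher) and 0.49 (12 of 12 higher). Counts for these subsets were made under TMM scaling only, and those of the whole cytosolic class were lower with library size only. For the scaffold genes AIMP1, AIMP2 and EEF1E1 0 of 3 passed in either fit, with a median of 0.10 and 0.30. The 2 structural classes of synthetase, which differ in the fold of the catalytic domain, had medians of -0.00 (class I, 9 of 18 higher) and 0.10 (class II, 10 of 16 higher), and 0.11 and 0.31 without replicate 3. EPRS1, with a domain of each class, was left out of this split.

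The 7 cytosolic genes whose window holds the TGATGNAA match had a median starvation effect of 0.08 with all libraries (5 of 7 higher), and the 9 with a window and no match had 0.05 (6 of 9 higher). Without replicate 3 the medians were 0.48 (7 of 7 higher) and 0.12 (8 of 9 higher). Among synthetases at an unadjusted p under 0.05 in edgeR without replicate 3, TARS1, CARS1 and GARS1 hold the match, printed above. FARSA, HARS1, KARS1 and the mitochondrial MARS2 do not. For TRPML3 the medians with and without the match were 0.13 and 0.01 in fed cells and 0.08 and 0.02 in starved cells. These values too were made under TMM scaling only. The difference between these groups was not tested.

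A list of 14 amino acid response genes, ATF4 and genes it is known to activate, held 0 genes that passed in the fit of 12 libraries in any of the 6 contrasts. With TRPML3, 12 of 14 were higher in fed cells (median 0.19) and 13 of 14 in starved cells (median 0.36). Of all genes 48.9% and 49.2% were higher, both with a median of -0.01. ATF4 itself, added after its values were seen, had 0.68 ± 0.31 in fed (unadjusted p = 0.0507 in edgeR) and 0.38 ± 0.31 in starved cells. Without replicate 3 its fed effect was 1.07 (unadjusted p = 0.000192, adjusted p = 0.346 in edgeR). Under starvation the median was -0.25 in vector cells (4 of 14 higher, all genes 49.4%) and -0.14 in TRPML3 cells (6 of 14 higher, all genes 51.2%). PSAT1, a serine synthesis enzyme, had a fed TRPML3 effect of 0.33 ± 0.13 (unadjusted p = 0.0258, adjusted p = 1 in edgeR). CEBPB and VLDLR, both lower, had average starvation effects of -0.44 ± 0.18 and -1.13 ± 0.41 (adjusted p = 0.486 and 0.434 in edgeR). Without replicate 3, ATF3 (-1.16, adjusted p = 0.0382 in edgeR) and VLDLR (-1.24, adjusted p = 0.0395) fell with starvation. The list was mixed in that fit. ATF4, ASNS, PHGDH, SESN2, NUPR1 and SLC7A11 were higher in starved cells (0.03 to 0.65), none of them passing, and the rest were lower.

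Among other genes of the charging and elongation steps, 0 passed in the fit of 12 libraries or without replicate 3. GFM2, a mitochondrial factor for ribosome recycling, had 1.24 ± 0.27 for average starvation (unadjusted p = 0.000814, adjusted p = 0.342 in edgeR) and 1.53 without replicate 3 (adjusted p = 0.0564). It ranged from 27.3 to 71.1 CPM in fed and from 74.0 to 155 CPM in starved libraries. All 6 starved libraries thus lay above all 6 fed ones, by a narrow margin, as they did for 0.754% of all genes. TUFM, the mitochondrial elongation factor that carries charged tRNA to the ribosome, had -0.67 ± 0.21 with TRPML3 in starved cells (unadjusted p = 0.00948, adjusted p = 1 in edgeR). The 4 partners of mitochondrial charging (QRSL1, GATB and GATC, which convert mischarged glutamate to glutamine on tRNA, and MTFMT, which formylates the initiator) had a median starvation effect of 0.00, the 5 cytosolic elongation factors 0.11 and the 4 relatives and editing enzymes (AARSD1, DTD1, DTD2 and TARS3) 0.31.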

How the data were processed

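The authors deposited a table of raw counts per gene and a table of normalized signal, where every value of a library is its raw count over 1 common size factor. Per the submitters' processing notes, FastQC, fastp, HISAT2, StringTie, DESeq2 and GRCh38 were used, with no versions or roles, and annotation, strand and filters are not given in the sources used here, so the counts may be rounded estimates. Counts were tested with edgeR 4.0.16 in R 4.3.3 (TMM, filterByExpr, robust quasi-likelihood fit of all 12 libraries with 1 coefficient per group, Benjamini-Hochberg over 18030 genes, threshold 0.05). Standard errors come from the fold change and its F. Alternatives were DESeq2 1.42.0 (Wald test, size factors), unscaled library size, removal of MCOLN3 from the counts, 2 other filters and the replicate block. Limma-trend (limma 3.58.1) on log2 of the authors' normalized signal + 1 was also run. Each library and each replicate number was also left out. Added after seeing the data were library size only and DESeq2 size factors combined with the omission of replicate 3. Gene lengths and coordinates are from GENCODE 29 (GRCh38), which listed 33 of the 35 identifiers and 93.9% of all gene rows, and promoter sequences from RefSeq (GRCh38.p14). Members and gene lists were chosen with earlier results of these data known. Values in all libraries are given for members at an adjusted p under 0.05, for up to 3 per class with the smallest unadjusted p under 0.05 in a contrast, for the highest and lowest of each class per length, and for HARS1 and HARS2; values of other members that are singled out were chosen after they were seen. Same-numbered libraries were checked for pairing by correlating deviations from group means over genes. Between plasmids r was 0.112, 0.145 and 0.326 in fed cells, which meets the limit of 0.1, and 0.131, 0.0949 and 0.316 in starved cells, and between fed and starved libraries it was -0.0757 to 0.00748. No 2 libraries agreed within counting noise (chi-square per degree of freedom at least 144 over 66 pairs). The code of the fit was run on simulated counts with known changes in TRPML3 fed only. Their spread was set below that of most genes here, so the run does not measure power in these data.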

Additional observations from a re-analysis of the deposited data

How the results depend on the processing

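Counts of 0 synthetases in the 2 TRPML3 comparisons, the 2 starvation comparisons within a plasmid and the interaction stayed at 0 under every alternative run. For average starvation the count went from 0 to 1 with the DESeq2 Wald test, to 3 without replicate 3 (0 to 3 over the 15 leave-one-out fits, of single libraries or of a replicate number), to 3 without replicate 3 and with DESeq2 size factors, and to 1 without replicate 3 and with library size only. Over all genes, the DESeq2 Wald test called 30 and 43 genes for TRPML3 in fed and starved cells, 43 and 88 for starvation in vector and TRPML3 cells, 27 for the interaction and 287 for average starvation, where edgeR called 2, 1, 1, 0, 0 and 0. With MCOLN3 removed from the counts, and so from the genes tested as well as the library sizes, the TRPML3 comparisons gave 1 and 0. The replicate block, a fit in which the replicate number pairs the libraries, gave 0, 0 and 0 genes for the fed and the starved TRPML3 comparison and for vector starvation, and changed no call of a synthetase. Without replicate 3 and with library size only or DESeq2 size factors, the counts were 0 and 0 for starvation in vector cells, 2 and 1 in TRPML3 cells and 848 and 791 for average starvation. Leaving out a library or number gave 0 to 4, 0 to 5, 0 to 2, 0 to 3, 0 to 3 and 0 to 810 genes in the order TRPML3 fed, TRPML3 starved, starvation in vector, in TRPML3, interaction and average starvation. The mitochondrial median for starvation in vector cells, -0.27, ranged from -0.28 to 0.24 over these fits, being 0.24 without replicate 3, 0.15 without it and with library size only and 0.23 without it and with DESeq2 size factors. The cytosolic interaction median, -0.04, was -0.20 when vector fed replicate 3 was omitted and 0.13 when TRPML3 fed replicate 3 was. The mitochondrial medians for average starvation (-0.17) and for starvation in TRPML3 cells (-0.10) were 0.08 and 0.07 without replicate 3. The median log2 ratio of the pairs, 3.40, was 2.88 with the union of exons as length. The average starvation effect of TARS1 was 0.35 without replicate 2 and 0.74 without replicate 3, and that of FARSA 0.19 and 0.68, so their size rests on which replicate number enters. The causes of these shifts were not tested. With 3 libraries a group and a median standard error of 0.30, small changes of a single gene were not detectable for most synthetases. For PARS2 and AARS2, fed libraries at 0 and 3 counts leave no usable fold in the comparisons that use them.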
